A study of Homo sapiens with 6 samples.

Results

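The 45 genes described here encode the machinery that copies DNA. They were chosen by name, with earlier results of these data known. Their rows in each library's gene table are those whose Entrez identifier maps to a listed symbol. Each of the 45 was found on 1 row of its own among 27434 rows. All 45 passed the filter on low counts, which left 13034 genes to test. They fall into 15 licensing genes (ORC1 to ORC6, CDC6, CDT1, GMNN and MCM2 to MCM7), 17 fork genes (MCM10, CDC45, GINS1 to GINS4, PCNA, RFC1 to RFC5, FEN1, LIG1 and RPA1 to RPA3), 9 polymerase genes (POLA1, POLA2, PRIM1, PRIM2, POLD1 to POLD3, POLE and POLE2) and 4 nucleotide supply genes (RRM1, RRM2, TYMS and TK1). The cells were HT-29, a human colon carcinoma line, transfected with small interfering RNA (siRNA) pools. The study asked what depends on HOXA-AS3 and HOXB-AS3, long non-coding RNAs transcribed from the middle of the HOXA and HOXB gene clusters. Of 6 libraries, 2 came from cells given a non-targeting control pool (siNT), 2 from cells given a pool against HOXA-AS3 (HOXA-AS3 KD) and 2 from cells given a pool against HOXB-AS3 (HOXB-AS3 KD). All 6 libraries came from cells given 10 nM siRNA per the labels (the study's methods state another concentration) and harvested at 48 h. One cell line and 1 siRNA pool per target were used, and nothing in the labels says that the 2 libraries of a group came from separate cultures, so p-values measure the spread between these libraries, which may be technical.

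Before S phase the origin recognition complex (ORC), CDC6 and CDT1 load the MCM2-7 helicase onto DNA, a step that geminin (GMNN) restricts. CDC45 and the GINS complex then turn the loaded helicase into the moving fork, with MCM10 aiding the start. Polymerase alpha with primase lays primers, polymerase delta and polymerase epsilon extend them, the RFC clamp loader places the PCNA clamp, RPA coats single strands, and FEN1 and LIG1 join the fragments. Ribonucleotide reductase (RRM1 and RRM2), thymidylate synthase (TYMS) and thymidine kinase (TK1) supply the deoxynucleotides. Many of these genes are transcribed at the entry into S phase under control of E2F factors.

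Expected counts summed to between 15998518 and 26263938 per library. HOXA-AS3 itself had 38 and 18 counts in siNT and 12 and 12 in the HOXA-AS3 KD libraries (log2 fold change −1.09 ± 0.40 SE, edgeR adjusted p = 0.711), and HOXB-AS3 had 303 and 213 counts in siNT and 67 and 76 in the HOXB-AS3 KD libraries (−1.96 ± 0.25, adjusted p = 0.0678), so neither passed the test against siNT. HOXB-AS3 did pass between the knockdowns, at −1.88 ± 0.25 in HOXB-AS3 KD against HOXA-AS3 KD (adjusted p = 0.0291). Of 9 colon epithelium markers, 8 were at 1 FPKM or more in each library, while CDX2, an intestinal transcription factor, stayed between 0.10 and 0.34 FPKM. Of 10 markers of blood, vessel and connective tissue only CD68 reached 1 FPKM (FPKM is fragments scaled to transcript length and to the sequencing depth). The HOXA-AS3 KD libraries stood apart from each other: across genes, the log2 difference of replicate 2 from replicate 1 had an SD of 0.726 there, against 0.425 in siNT and 0.371 in HOXB-AS3 KD, and that difference followed GC content (Pearson r = −0.765 across 12622 genes, which are not independent replicates). In siNT the same correlation was 0.423, in the other direction, and in HOXB-AS3 KD it was −0.150. Medians by role after HOXA-AS3 KD are also given with the GC trend of each library removed.

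The promoter windows of 5 genes, chosen by their p-values in these data, are printed here. They are the 3 genes that passed the test between the knockdowns (MCM10, POLA2 and TYMS) and the 2 licensing genes with the smallest p after HOXA-AS3 KD (ORC1 and MCM3). The sequences come from RefSeq (GRCh38.p14) and run 5′ to 3′ on the gene's strand from 200 bases before to 10 bases after the start. Capitals mark 1 of 4 strings of E2F letters, TTTCCCGC, TTTCGCGC, TTTGCCGC or TTTGGCGC, read on either strand. None of the 4 strings holds another. The windows are MCM10 at chr10:13161358-13161567 (+), MCM3 at chr6:52284733-52284942 (−), ORC1 at chr1:52404414-52404623 (−), POLA2 at chr11:65261762-65261971 (+) and TYMS at chr18:657453-657662 (+).
MCM10: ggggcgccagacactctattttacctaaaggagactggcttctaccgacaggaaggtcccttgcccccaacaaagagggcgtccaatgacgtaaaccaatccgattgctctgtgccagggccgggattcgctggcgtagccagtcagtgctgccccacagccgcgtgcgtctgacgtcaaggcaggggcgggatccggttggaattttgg
MCM3: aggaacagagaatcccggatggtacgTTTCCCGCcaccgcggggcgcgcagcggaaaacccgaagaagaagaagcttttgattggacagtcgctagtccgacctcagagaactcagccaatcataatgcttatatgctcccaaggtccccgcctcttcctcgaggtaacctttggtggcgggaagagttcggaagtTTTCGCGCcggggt
ORC1: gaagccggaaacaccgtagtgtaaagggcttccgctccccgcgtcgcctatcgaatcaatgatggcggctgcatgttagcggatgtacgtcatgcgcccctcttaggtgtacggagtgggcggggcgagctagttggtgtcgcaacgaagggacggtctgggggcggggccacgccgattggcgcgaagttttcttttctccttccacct
POLA2: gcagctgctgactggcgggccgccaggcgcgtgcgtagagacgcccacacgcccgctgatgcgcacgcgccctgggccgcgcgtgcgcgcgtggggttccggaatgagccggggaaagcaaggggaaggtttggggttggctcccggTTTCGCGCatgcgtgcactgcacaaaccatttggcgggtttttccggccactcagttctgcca
TYMS: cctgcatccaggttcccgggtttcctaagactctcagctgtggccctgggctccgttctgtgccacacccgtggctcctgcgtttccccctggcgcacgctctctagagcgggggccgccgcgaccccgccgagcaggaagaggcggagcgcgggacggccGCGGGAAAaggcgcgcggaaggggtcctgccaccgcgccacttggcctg
MCM3 held 2 such strings, with first bases at positions −174 and −4 from the start, POLA2 held 1 at −53 and TYMS held 1 at −39, the last on the opposite strand. MCM10 and ORC1 held none, which says only that these letters are not in their windows. With full windows, from 250 bases before to 50 after a start, the table held 50 promoters of 39 of the 45 genes (not MCM4, MCM5, GINS4, RPA2, RPA3 or POLD3). The letters were found in 19 of these 50 promoters (38%), in 4.97% of the promoters of all genes tested and in 1164 of 35116 promoters in all (3.31%). By role they stood in 8 of 17 licensing promoters, 6 of 17 fork promoters, 4 of 10 polymerase promoters and 1 of 6 nucleotide supply promoters. The CCAAT box (CCAAT) stood in 29 of the 50 promoters, against 35.0% for genes tested and 34.6% of all promoters, and the CHR element (TTTGAA) in 1 of the 50, against 10.6% for genes tested and 15.2% of all.

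In the siNT libraries the 45 genes ranged from 1.87 ± 0.085 FPKM (SD, n = 2) for GINS4 to 131 ± 11.7 for PCNA, on a scale that takes transcript length into account. PCNA, the sliding clamp, was at 139.6 and 123 FPKM, above the other 44 genes in both libraries. The nucleotide supply genes came next: TK1 at 91.4 ± 15.8, TYMS at 72.0 ± 3.5, RRM1 at 69.2 ± 1.7 and RRM2 at 66.3 ± 0.42 FPKM. In that order TYMS and RRM1 overlapped between libraries, and the other neighbours did not. GMNN, with 44.1 and 35.6 FPKM, was the highest licensing gene, and POLD2, a regulatory subunit of polymerase delta, the polymerase gene with the highest mean, at 27.2 and 36 FPKM, although PRIM1 was higher in replicate 1 (27.4). Subunits of a complex were unequal to differing degrees. The ratio of the highest to the lowest siNT mean was 11.7 in polymerase delta (POLD2 over POLD1), 10.5 in GINS (GINS2 over GINS4), 8.71 in polymerase alpha with primase (PRIM1 over POLA1) and 4.67 in MCM2-7 (MCM7 over MCM6). It was 2.56 among the 6 ORC genes and 1.48 among ORC2 to ORC5. Among the 3 RPA genes it was 1.94, among the 5 RFC genes 1.76 and in polymerase epsilon 1.09 (POLE over POLE2).

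**Figure D1:**
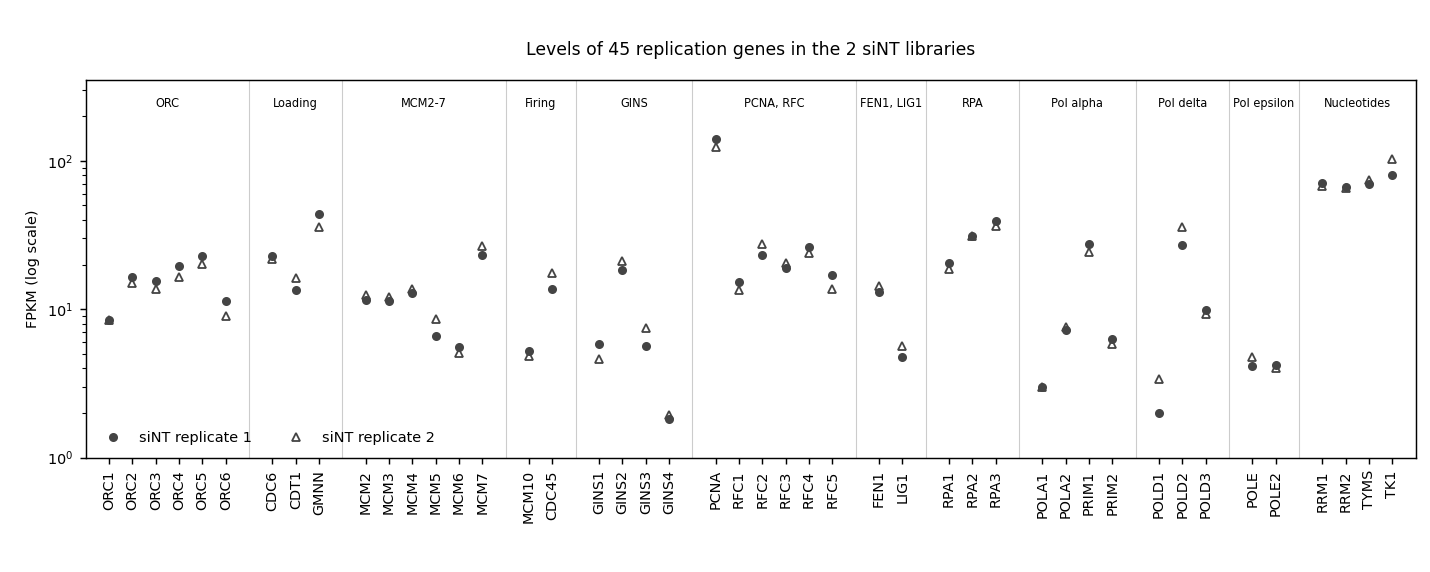
FPKM (log scale) of each of the 45 genes in the 2 siNT libraries, by complex, with 1 point per library. PCNA stands highest at a mean of 131 FPKM, the 4 nucleotide supply genes lie between 66.3 and 91.4, and GINS4 is lowest at 1.87.

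After HOXA-AS3 KD the replication genes lay lower than in siNT as a group, but none passed the test across all genes. Of the 45, 42 had a log2 fold change below 0, and the median was −0.41 against 0.01 over all genes tested. The 3 with a value above 0 were ORC4 (0.09), ORC5 (0.09) and RFC1 (0.08), and with DESeq2 there were 4. In 26 of the 45 both HOXA-AS3 KD libraries were below both siNT libraries on the log2 CPM scale, a pattern seen in 16.1% of all genes, and in 24 they were below the other 4 libraries (9.75% of all genes). At an unadjusted p below 0.05 edgeR counted 17 of the 45 as lower, against 3.41% of all genes, and none as higher. With adjustment edgeR called 0 of the 45 and 0% of all genes. DESeq2 called 2 (TYMS, adjusted p = 0.00342, and MCM10, 0.0498), against 0.343% of all genes called lower, and limma on log2 FPKM called 0. In bulk RNA, fewer cells in S phase and less of these transcripts per cell cannot be told apart.

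**Figure D2:**
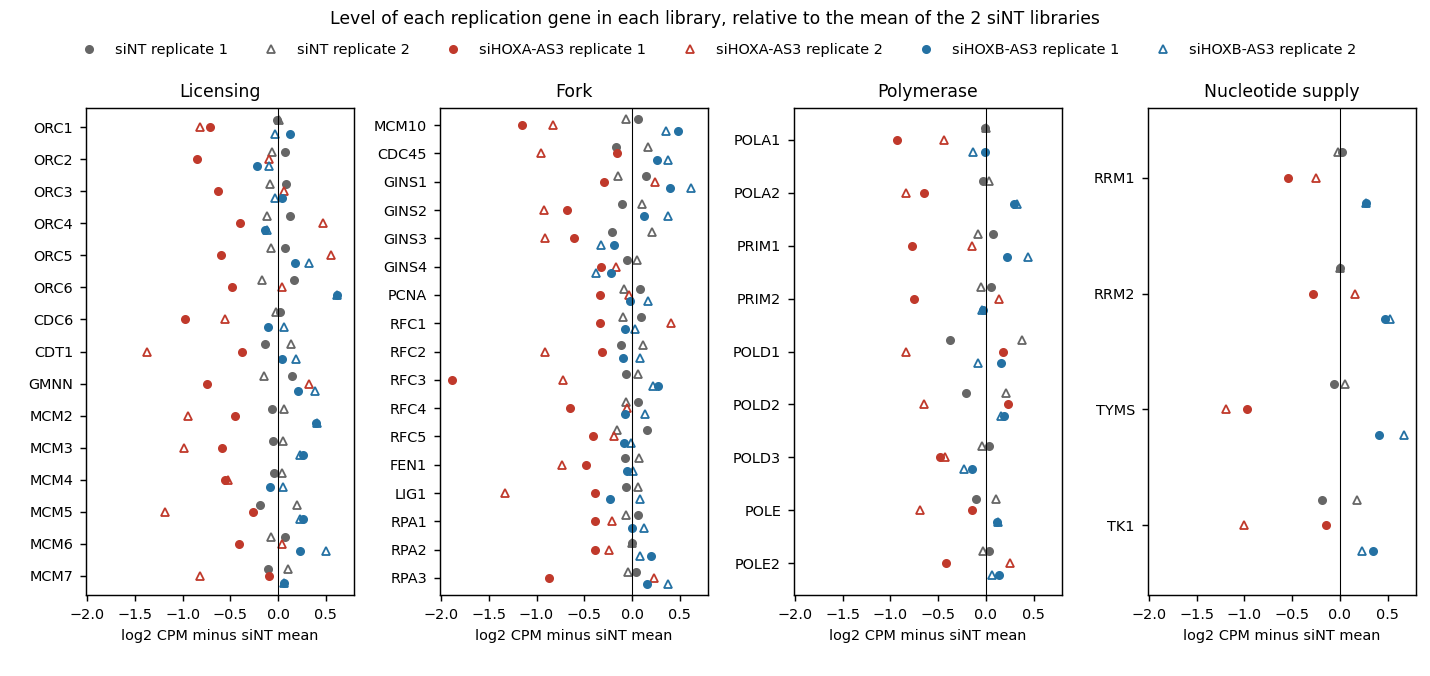
Log2 CPM (counts scaled to library size) of each gene minus its mean in the 2 siNT libraries, 1 point per library, by role; filled circles are replicate 1 and open triangles replicate 2. Most red points (HOXA-AS3 KD) lie left of 0, with medians over the 45 genes of −0.48 and −0.44, and the blue points (HOXB-AS3 KD) lie on both sides of 0, with medians of 0.13 and 0.14.

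The licensing genes had a median of −0.43 after HOXA-AS3 KD (−0.52 with the GC trend removed), with 13 of 15 lower and 6 at an unadjusted p below 0.05. ORC1, the ORC subunit whose level varies through the cell cycle, was at 8.41 and 8.44 FPKM in siNT and at 5.09 and 4.74 in the HOXA-AS3 KD libraries. The groups did not overlap, and the log2 fold change was −0.77 ± 0.19 SE (adjusted p = 0.517, edgeR). ORC2 to ORC5 had a median of −0.08, beside library medians of −0.61 in HOXA-AS3 KD replicate 1 and 0.27 in replicate 2. With the GC trend removed it was −0.22 (−0.34 and −0.23), and ORC2 was then at −0.52 ± 0.11 and called lower. MCM3, a helicase subunit, was at 11.3 and 12.1 FPKM in siNT and at 7.74 and 5.8 after HOXA-AS3 KD, again without overlap (−0.78 ± 0.21, adjusted p = 0.571). All 6 MCM2-7 subunits had a value below 0, from −0.78 for MCM3 to −0.17 for MCM6, with a median of −0.60. CDC6 and CDT1, which load the helicase, were at −0.75 ± 0.21 and −0.80 ± 0.33. The libraries parted for CDT1, which was at 13.5 and 16.2 FPKM in siNT, 11.3 in HOXA-AS3 KD replicate 1 and 5.61 in replicate 2, and in the other order for GMNN, at 23.3 in replicate 1 and 49.7 in replicate 2 against 44.1 and 35.6 in siNT (−0.13 ± 0.34). With the GC trend removed CDT1 was at −0.82 ± 0.12 and GMNN at −0.26 ± 0.14.

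The fork genes had a median of −0.33 (−0.39 with the GC trend removed), with 16 of 17 lower and 6 at an unadjusted p below 0.05. MCM10 was at 5.25 and 4.81 FPKM in siNT and at 2.23 and 2.79 after HOXA-AS3 KD. Both were below either siNT library (−0.99 ± 0.21, adjusted p = 0.465). GINS2 was at 18.3 and 21.0 FPKM in siNT and at 12.2 and 10.3 after HOXA-AS3 KD (−0.80 ± 0.21, adjusted p = 0.581). Its partner GINS1 was at −0.01 ± 0.25, with log2 CPM relative to siNT of −0.29 in HOXA-AS3 KD replicate 1 and 0.24 in replicate 2. A difference between the 4 GINS subunits was not tested. RFC3, a clamp loader subunit named here after its values were seen, had the lowest value of the 45 genes at −1.20 ± 0.36 (adjusted p = 0.618), with 18.9 and 20.5 FPKM in siNT, 5.27 in HOXA-AS3 KD replicate 1 and 11.8 in replicate 2. PCNA was at 103.9 and 127.6 FPKM, overlapping siNT (−0.18 ± 0.18), and the 3 RPA genes lay between −0.31 and −0.22.

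Among the polymerase genes all 9 had a value below 0, with a median of −0.39 (−0.36 with the GC trend removed) and 3 at an unadjusted p below 0.05. POLA2, the accessory subunit of polymerase alpha, was at 7.28 and 7.54 FPKM in siNT and at 4.7 and 4.08 after HOXA-AS3 KD. The groups did not overlap (−0.74 ± 0.19, adjusted p = 0.518). POLA1, the catalytic subunit, was at 2.97 in both siNT libraries and at 1.55 and 2.16 after HOXA-AS3 KD (−0.67 ± 0.24, adjusted p = 0.682). Polymerase alpha with primase had a median of −0.55, polymerase delta −0.27 and polymerase epsilon −0.22, or −0.62, −0.28 and −0.28 with the GC trend removed. For polymerase delta the HOXA-AS3 KD libraries were opposite, with medians of 0.18 in replicate 1 and −0.65 in replicate 2. POLD2 showed no separation, with 36.8 and 19.7 FPKM after HOXA-AS3 KD around the siNT values (−0.15 ± 0.31).

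Of the nucleotide supply genes all 4 had a value below 0, with a median of −0.46 (−0.49 with the GC trend removed) and 2 at an unadjusted p below 0.05. TYMS, which makes thymidylate, was at 69.5 and 74.5 FPKM in siNT and at 36.5 and 31.3 after HOXA-AS3 KD. Both values lay below either siNT library, and its adjusted p was the smallest of the 45 genes (−1.08 ± 0.18, adjusted p = 0.36). TYMS shares 967 exon bases with ENOSF1 on the other strand in GENCODE v29, and the strand setting of the counting is not given in the sources used here; ENOSF1 was at −0.10 ± 0.17. RRM1, the large subunit of ribonucleotide reductase, was at 70.4 and 68 FPKM in siNT and at 47.2 and 57.8 after HOXA-AS3 KD (−0.39 ± 0.16, adjusted p = 0.781). RRM2, its partner, was at 66.5 and 66 in siNT and at 54.1 and 73.2 after HOXA-AS3 KD, on both sides of siNT (−0.05 ± 0.18). TK1 was at 81.7 and 44.9 after HOXA-AS3 KD against 80.2 and 102.6 in siNT (−0.52 ± 0.29). In all, 15 of the 45 genes share exon bases with a gene on the other strand, MCM2, GINS4, MCM7 and FEN1 among them. The shared stretch ran from 7 bases (GINS2) to 1159 (GINS4). Reads within it could not be assigned to 1 of the 2 genes if strand was not used.

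**Figure D3:**
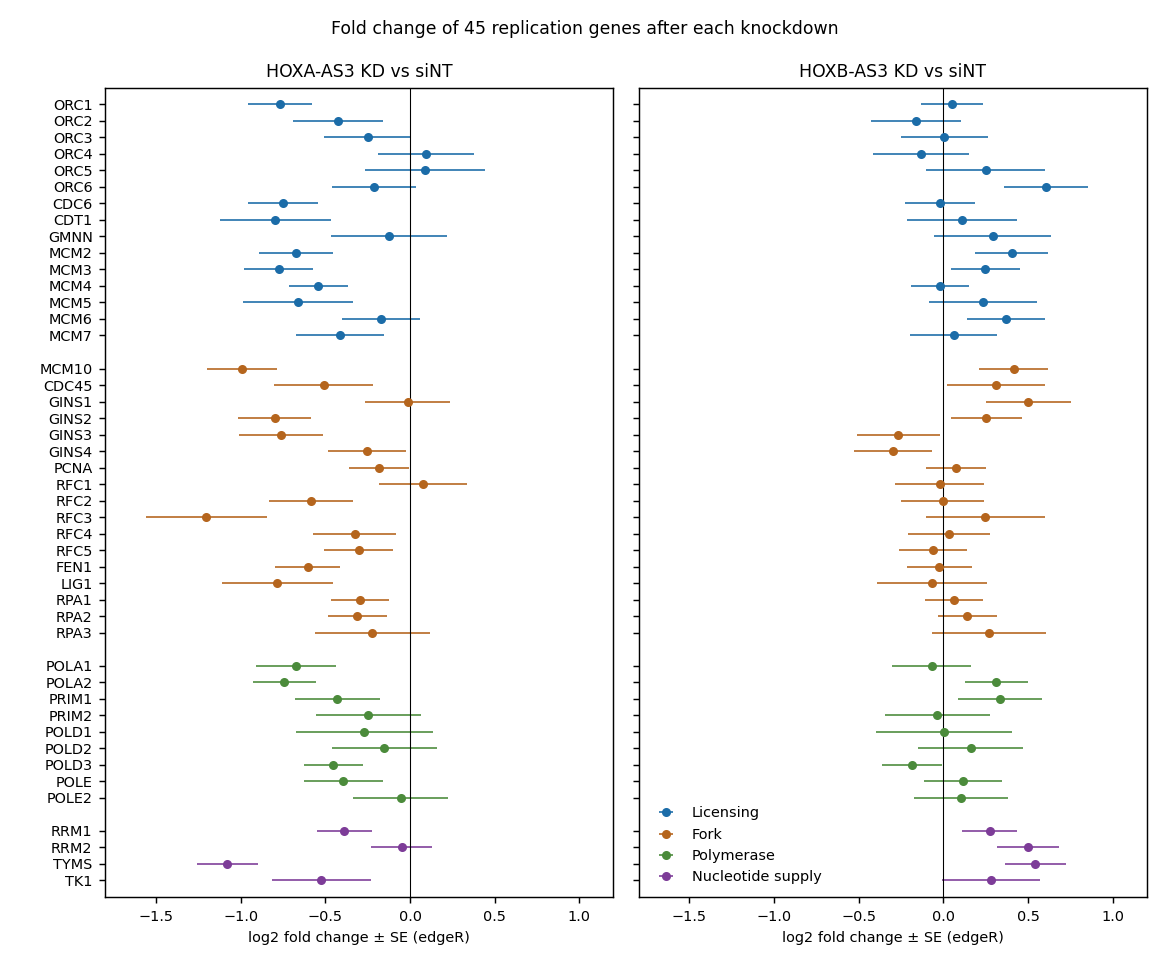
Log2 fold change ± SE (edgeR) of each gene after HOXA-AS3 KD (left) and after HOXB-AS3 KD (right) against siNT, with 2 libraries per group and colours for the 4 roles. On the left 42 of 45 points lie below 0, with RFC3 lowest at −1.20, and on the right 31 of 45 lie above 0, with ORC6 highest at 0.61.

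The 2 HOXA-AS3 KD libraries disagreed on many of these genes along GC content. Across the 45 genes, which are not independent, the difference of replicate 2 from replicate 1 ran from −1.02 to 1.16 on the log2 scale and went with the GC content of the transcripts (r = −0.92, Spearman rho = −0.92, n = 45). In the 15 genes of lowest GC content (38% to 44.5%), ORC4, GMNN and RFC4 among them, all 15 lay below the siNT mean in replicate 1 (median −0.63) and 7 did in replicate 2 (median 0.04). In the 15 of highest GC content (51.6% to 65.3%), CDT1 and TK1 among them, the medians were −0.31 and −0.92, with 13 and 15 genes below. After a loess trend on GC content was taken out of each library, these medians were −0.34 and −0.30 for the 15 lowest and −0.46 and −0.62 for the 15 highest. All 45 genes then had a value below 0 (median −0.44), ORC4 (−0.07), ORC5 (−0.05) and RFC1 (−0.02) included, and edgeR called 19 of the 45 lower, against 2.58% of all genes. These were 8 licensing genes (ORC1, ORC2, CDC6, CDT1 and MCM2 to MCM5), 5 fork genes (MCM10, GINS2, RFC3, FEN1 and LIG1), 3 polymerase genes (POLA1, POLA2 and PRIM1) and 3 nucleotide supply genes (RRM1, TYMS and TK1). Left as counted, leaving out HOXA-AS3 KD replicate 1 gave 23 calls lower and 3 higher, against 15.3% and 15% of all genes. Leaving out replicate 2 gave 24 lower, against 9.95%. Both times, 12 of the 45 were called lower, against 1.87% of all genes (CDC6, FEN1, GINS2, MCM10, MCM2, MCM3, MCM4, ORC1, POLA2, POLD3, RFC3 and TYMS). Such calls did not appear when a siNT or HOXB-AS3 KD library was left out instead. With a HOXA-AS3 KD library left out, the lone one was assumed to vary like the other groups. Their replicate differences had SDs of 0.425 (siNT) and 0.371 (HOXB-AS3 KD), against 0.726 in HOXA-AS3 KD, so these calls cannot measure its own spread. Whichever library was left out, the median over the 45 genes stayed between −0.47 and −0.39. The 2 siNT libraries, the baseline of these values, also differed along GC content, in the other direction. Of the 15 genes of highest GC content, 15 lay below the siNT mean in siNT replicate 1 and 0 in replicate 2. Of the 15 of lowest GC content, 2 and 13 did. The part of GC content in the fold changes was not tested beyond the fits given here.

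**Figure D4:**
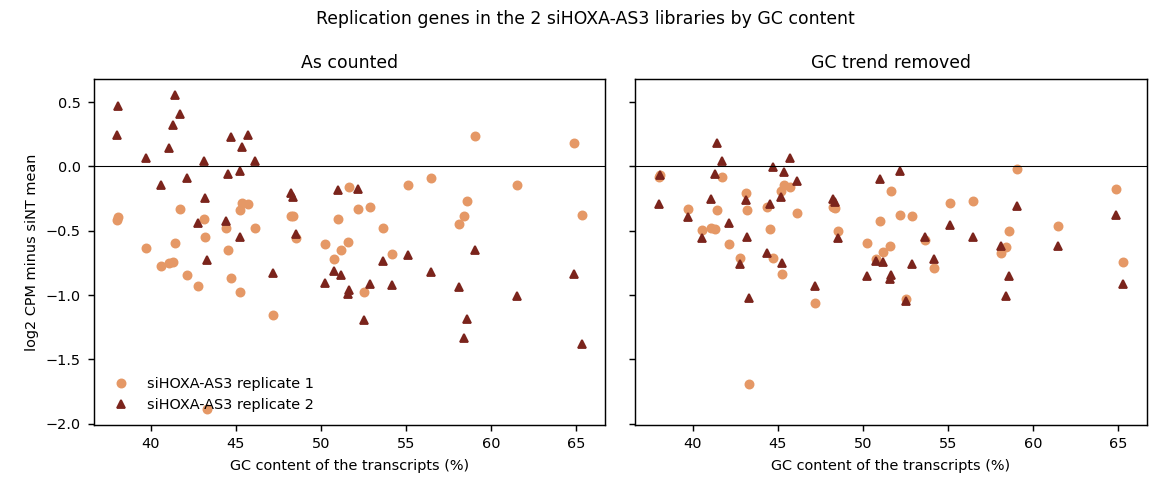
Log2 CPM minus the siNT mean of each of the 45 genes in the 2 HOXA-AS3 KD libraries against the GC content of its transcripts (%), as counted (left) and with the GC trend removed (right). As counted, replicate 2 slopes down from above 0 to below −1, and with the trend removed the medians over the 45 genes are −0.46 and −0.55.

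After HOXB-AS3 KD the replication genes lay close to siNT, with more values above 0 than below and none past the test. Of the 45, 31 were higher and 14 lower, with a median of 0.11 against −0.01 over all genes. Both HOXB-AS3 KD libraries were above both siNT libraries in 22 of the 45, against 30.9% of all genes, and below both in 4, also against 30.9%. At an unadjusted p below 0.05 edgeR counted 3 as higher, against 4.42% of all genes, and none as lower. With adjustment edgeR, DESeq2 and limma each called 0 of the 45. Over all genes edgeR called 0.0614%, and DESeq2 and limma each called more, as counted in the last section.

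The nucleotide supply genes had the highest median of the 4 roles after HOXB-AS3 KD, 0.39, against 0.11 for licensing, 0.06 for fork and 0.10 for polymerase genes, and no test of the difference between roles was run. All 4 had both libraries above both siNT libraries. TYMS was at 92.7 and 110.1 FPKM (0.54 ± 0.18, adjusted p = 0.282) and RRM2 at 89.0 and 91.9 (0.50 ± 0.18, adjusted p = 0.324). RRM1 stood at 81.2 and 80.4 FPKM and TK1 at 111.7 and 102.9. The lower TK1 value was barely above the higher siNT library (102.6). ORC6, the smallest ORC subunit, stood at 11.4 and 8.94 FPKM in siNT and at 15.04 and 14.87 after HOXB-AS3 KD (0.61 ± 0.25, adjusted p = 0.391). MCM2 was at 15.4 in both libraries against 11.6 and 12.5 in siNT (0.40 ± 0.22), MCM10 at 6.79 and 6.2 (0.42 ± 0.20), and GINS1 at 6.61 and 7.66 against 5.8 and 4.62 (0.50 ± 0.25). POLA2, at 8.84 and 8.97, and PRIM1, at 29.3 and 33.7 against 27.4 and 24.3 in siNT, had values of 0.31 ± 0.18 and 0.33 ± 0.25. The genes with both HOXB-AS3 KD libraries below siNT were ORC2, GINS4, POLA1 and POLD3. POLA1 was barely so, with log2 CPM relative to siNT of −0.0051 in HOXB-AS3 KD replicate 1 and −0.0045 in siNT replicate 1. Fitted without the HOXA-AS3 KD libraries, 7 of the 45 were called higher (ORC6, MCM2, MCM10, GINS1, RRM1, RRM2 and TYMS), against 11.2% of all genes. With the GC trend removed 5 were (ORC6, MCM2, RRM2, TYMS and TK1), against 5.74%.

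Between the knockdowns, 3 replication genes were higher after HOXB-AS3 KD than after HOXA-AS3 KD by edgeR, against 0.629% of all genes: TYMS (log2 difference 1.62 ± 0.18, adjusted p = 0.0275), MCM10 (1.41 ± 0.21, adjusted p = 0.0382) and POLA2 (1.06 ± 0.19, adjusted p = 0.0492). In each of the 3 both HOXB-AS3 KD libraries lay above both HOXA-AS3 KD libraries, as they did in 32 of the 45 genes and in 22.8% of all genes. The difference was above 0 in 42 of the 45 (median 0.52, all genes −0.01) and had an unadjusted p below 0.05 in 21, against 7.9% of all genes. By role the medians were 0.54 for licensing, 0.50 for fork, 0.31 for polymerase and 0.73 for nucleotide supply genes. DESeq2 called 8 of the 45 (2.27% of all genes) and the fit with the GC trend removed called 30 (13% of all genes). All 3 edgeR calls were lost when any 1 of the siNT or HOXB-AS3 KD libraries was left out, when only the 2 groups compared were fitted, and with the replicate number as a block. With the 2 groups alone the log2 differences were 1.61, 1.40 and 1.05 (adjusted p = 0.104, 0.137 and 0.188 by edgeR). POLA2 was also lost with library totals as the scale (0.051), with a filter on FPKM (0.0549) and with limma on log2 FPKM (0.0563). Because both knockdowns were set against the same siNT libraries, their own values are given side by side without a measure of likeness.

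The 19 genes with E2F letters in the promoter window all had a value below 0 after HOXA-AS3 KD, with a median of −0.67. In 12 of them both knockdown libraries lay below both siNT libraries, a pattern seen in 16.1% of all genes. Of the 20 with a window that did not hold the letters, 17 were lower, with a median of −0.32, and 9 had that pattern. With the GC trend removed the medians were −0.71 and −0.38. Among other genes tested, 650 with these letters had a median of −0.04, with 56.8% lower, and 9318 without had a median of 0.01, with 48.1% lower. After HOXB-AS3 KD the replication genes with and without the letters had medians of 0.12 and 0.06. The split is a description of these windows, and whether E2F bound them was not measured.

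**Figure D5:**
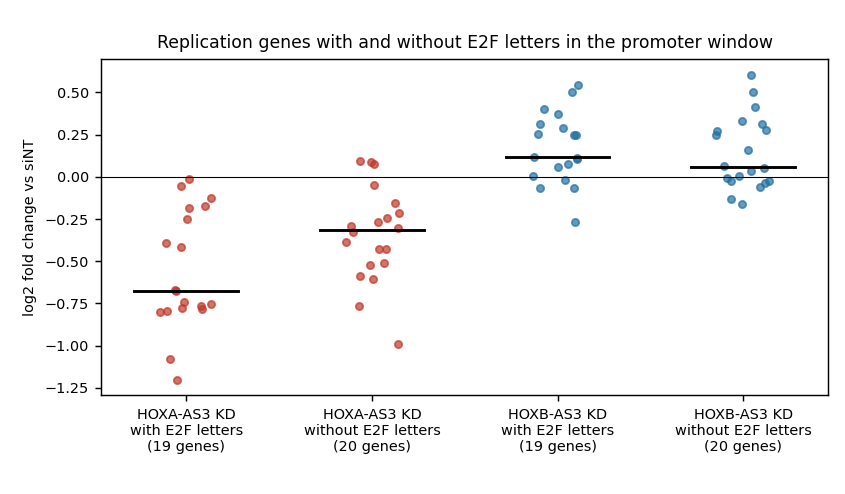
Log2 fold change against siNT of the replication genes whose promoter window holds (19) or lacks (20) E2F letters, after each knockdown, 1 point per gene with a line at the median. After HOXA-AS3 KD the medians are −0.67 with and −0.32 without the letters.

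The other lists around replication held no gene past the edgeR test in either knockdown. After HOXA-AS3 KD the 28 other replication factors had a median of −0.28 with 25 lower, the 10 genes of chromatin assembly and maintenance at the fork −0.35 with 9 lower, the 24 mitosis genes −0.29 with 23 lower, the 21 genes of G1/S control −0.23 with 16 lower, and the 16 other nucleotide synthesis genes −0.01 with 8 lower. At an unadjusted p below 0.05, 2, 4, 4, 4 and 2 of them were lower, in that order, against 3.41% of all genes. Of the G1/S genes 1 was higher, against 359 of all 13034 genes tested. DESeq2 called none of these genes after HOXA-AS3 KD, where it called 0.343% of all genes lower. TIMELESS, a fork protection factor, was at 5.75 and 6.7 FPKM in siNT and 4.13 and 2.92 after HOXA-AS3 KD (−0.81 ± 0.24). RBBP4, a histone chaperone subunit, was at −0.69 ± 0.16, IMPDH2, of guanine nucleotide synthesis, at −0.64 ± 0.16 and CCND1, cyclin D1, at −0.83 ± 0.19. After HOXB-AS3 KD the medians were 0.13, 0.07, −0.06, 0.15 and 0.30, and 14 of the 16 other nucleotide synthesis genes lay above 0. At an unadjusted p below 0.05, 1 other replication factor, 1 mitosis gene, 1 G1/S gene and 1 other nucleotide synthesis gene were lower. These counts have no share of all genes in that direction beside them and are not read as a result. Higher were 2 G1/S genes and 4 other nucleotide synthesis genes, against 4.42% of all genes. DESeq2 called POLE3, DCK and MKI67 lower and CDK6 higher. Its calls over all genes are counted in the last section, both directions together, so no share by direction stands beside these genes. DCK, deoxycytidine kinase, was at 22.6 and 19.2 FPKM in siNT and at 9.46 and 9.97 after HOXB-AS3 KD (−1.06 ± 0.20, adjusted p = 0.112). POLE3, a small epsilon subunit, was at −0.80 ± 0.17, CDK6 at 0.82 ± 0.17 and CHAF1B, of the chromatin assembly factor, at 0.39 ± 0.20. MKI67, the proliferation marker Ki-67, was lower in all 4 knockdown libraries: 111 and 104 FPKM in siNT, 70.4 and 67.2 after HOXA-AS3 KD (−0.63 ± 0.13, adjusted p = 0.465) and 64.8 and 62.7 after HOXB-AS3 KD (−0.71 ± 0.13, adjusted p = 0.112).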

How the data were processed

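PolyA RNA of 6 HT-29 libraries was sequenced with the Lexogen SENSE mRNA kit. The authors deposited RSEM expected counts, TPM and FPKM per gene on RefSeq; the submitters' processing notes name hg19. Aligner, RSEM version and strand use were not given in the sources used here. The deposited expected counts were rounded; 627 rows that join several genes hold 6.02% to 6.62% of counts. Rows without a symbol hold 0.0267% to 0.0342%. Deposited FPKM values gave levels, and deposited TPM values an alternative scale. The main fit used edgeR 4.0.16 in R 4.3.3 (quasi-likelihood test, TMM, minimum count 10, all 6 libraries, Benjamini-Hochberg over 13034 genes, threshold 0.05), and calls refer to it. SE was the log2 fold change over the root of its F. DESeq2 1.42.0, limma 3.58.1 (pseudocount 0.1), other filters and scalings, a loess GC correction (span 0.3, GC content for 96.8% of genes), a replicate block and leaving out each library were alternatives. Replicate numbers were checked for pairing and did not pair the libraries. Per library values were given for genes called, for the 2 smallest p of each role and knockdown, for the highest level of each role, and for the smallest p of each further list. The members and lists were chosen with earlier results of these data known. Library number, 2 per group, limits precision.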

Additional observations from a re-analysis of the deposited data

How the results depend on the processing

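Values near 0 could change sign: the fork median after HOXB-AS3 KD with 1 library left out, ORC4, ORC5 and RFC1 after HOXA-AS3 KD under GC removal, and GINS1 and the other nucleotide synthesis median after HOXA-AS3 KD with DESeq2. Counts of calls depended on the settings, and the cause was not tested. Values are given in the order HOXA-AS3 KD against siNT, HOXB-AS3 KD against siNT, and HOXB-AS3 KD against HOXA-AS3 KD. As reported, 0, 8 and 204 genes were called, with 0, 0 and 3 replication genes.

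DESeq2 called 59, 356 and 787 genes (2 replication genes lower in the first, 8 higher in the last), no filter 24, 265 and 706 (1 lower, 7 higher), and limma on FPKM 1 gene in the first and 14 in the second. Only the groups compared gave 2995 genes in the second (7 higher) and 2 in the last (0). The replicate block gave 0 and 10 genes in the second and last, with 0 replication genes. The crossed pairing, added after seeing the data, gave 14, 225 and 758 genes, with 10 replication genes higher in the last. GC removal gave 569, 1773 and 3370 genes, with 19 lower, 5 higher and 30 higher. GC removal with the replicate block gave 374, 1379 and 2872, with 15 lower, 4 higher and 29 higher. Length removal gave 1 gene in the first.

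Medians of log2 fold change moved by more than the replicate SD as follows. After HOXA-AS3 KD the median over the 45 genes was −0.39 without a filter and with only the groups compared, −0.44 under the block, GC removal and both together, and −0.46 on FPKM. That of licensing genes was −0.46 under the block, −0.48 on FPKM and −0.52 under GC removal with or without the block. With MCM2-7 counted as fork genes, licensing was −0.25 and fork −0.51. After HOXB-AS3 KD the median over the 45 genes was 0.067 on FPKM, 0.065 on library totals, 0.092 at a mean FPKM of 1 or more and 0.14 under GC removal with or without the block; licensing was 0.067, 0.065, 0.17 and 0.16 on FPKM, on library totals and under GC removal without and with the block, and 0.051 without MCM2-7; polymerase was 0.054 on FPKM, 0.056 on library totals, 0.070 under length removal and 0.14 under GC removal with or without the block. Between the knockdowns the median over the 45 genes was 0.50 without a filter, 0.55 under the block and under length removal, 0.51 on FPKM, 0.49 on library totals and 0.50 at a mean FPKM of 1 or more; licensing was 0.51 on FPKM, 0.59 under length removal and 0.42 without MCM2-7; polymerase was 0.42 under GC removal with or without the block and 0.28 on library totals.

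Leaving out each library in turn, genes called ranged from 0 to 4031, from 0 to 3035 and from 0 to 5027. Replication genes called lower ranged from 0 to 24 in the first and from 0 to 2 in the last, and those called higher from 0 to 3, from 0 to 7 and from 0 to 32. The counts above 0 for replication genes came with either HOXA-AS3 KD library left out: without replicate 1 they were 23 lower and 3 higher, 7 higher, and 27 higher and 2 lower, and without replicate 2 they were 24 lower, 7 higher and 32 higher. Without any 1 siNT or HOXB-AS3 KD library the count was 0 in each comparison. In these fits a lone library is assumed to vary like the other groups. After HOXA-AS3 KD the medians ranged from −0.47 to −0.39 over the 45 genes, −0.55 to −0.42 for licensing, −0.39 to −0.24 for fork, −0.47 to −0.30 for polymerase and −0.63 to −0.37 for nucleotide supply genes. After HOXB-AS3 KD they ranged from 0.10 to 0.17, 0.049 to 0.19, −0.023 (without HOXB-AS3 KD replicate 2) to 0.13, 0.015 to 0.23 and 0.37 to 0.49, and between the knockdowns from 0.51 to 0.64, 0.47 to 0.77, 0.39 to 0.60, 0.31 to 0.52 and 0.71 to 0.91, in the same order.

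With 2 libraries per group the precision is low.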
